A study of Mus musculus with 6 samples.

Results

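The genes that govern the passage of cells from G1 into S phase were examined in hearts of YAP5SA mice and Control mice. The set was a given list of 10 genes out of 22281 features in the deposited count table: the cyclins Ccnd1, Ccnd2, Ccnd3 and Ccne1, the cyclin-dependent kinases Cdk2, Cdk4 and Cdk6, and the kinase inhibitors Cdkn1a, Cdkn1b and Cdkn2c. All 10 were found under their own symbols. The YAP5SA group was adult mice that carried Myh6-MCM, a tamoxifen-activated Cre recombinase under the cardiomyocyte promoter of Myh6, together with the YAP5SA transgene, a form of the Hippo pathway coactivator YAP that Lats kinases cannot phosphorylate. The Control group was adult mice that carried Myh6-MCM without that transgene. Both groups received tamoxifen, so Cre activity in cardiomyocytes was common to both. Cells were freed by collagenase perfusion and profiled by Drop-seq, which counts barcoded 3' ends of transcripts as unique molecular identifiers (UMIs). Each genotype had 3 libraries, of which 2 came from dissociated tissue (YAP5SA tissue-1 and tissue-2, Control tissue-2 and tissue-3) and 1 from cardiomyocytes enriched by settling.

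D-type cyclins bind Cdk4 and Cdk6 and, in response to growth signals, start the phosphorylation of the retinoblastoma protein. Cyclin E with Cdk2 carries this on, which frees E2F factors to transcribe the genes of S phase. The products of Cdkn1a (p21) and Cdkn1b (p27) bind cyclin-CDK complexes, and p21 is a classical target of p53, whereas the product of Cdkn2c (p18) binds Cdk4 and Cdk6. Adult mouse cardiomyocytes have largely left the cell cycle and are known for low G1 cyclin and CDK levels.

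The libraries held between 1405 and 5860 cells, between 3382656 and 13483791 UMIs, and a median of 1323 to 1897.5 UMIs per cell. No pair of libraries shared more than 2 cell barcodes. Cardiomyocytes, which are the authors' clusters CM1 to CM3 and YAP5SAcm combined, numbered 343, 282 and 1004 in YAP5SA tissue-1, YAP5SA tissue-2 and YAP5SA enriched, and 576, 1173 and 1068 in Control tissue-2, Control tissue-3 and Control enriched. The 9 cardiomyocyte markers were detected in all 6 cardiomyocyte sums, with summed levels of 28578 to 42553 CPM (counts of a gene scaled to 1000000 UMIs of the class in the library) in YAP5SA and 63633 to 88501 CPM in Control. Markers of other cells were higher in the YAP5SA sums: 8 fibroblast markers summed to 462 to 644 CPM in YAP5SA and 78.1 to 414 CPM in Control, 9 macrophage markers to 371 to 944 CPM in YAP5SA and 20.8 to 274 CPM in Control, and 5 epicardial markers to 36.5 to 72.7 CPM in YAP5SA and 1.76 to 3.83 CPM in Control. The 6 smooth muscle or pericyte markers summed to 3043 to 3535 CPM in YAP5SA and 155 to 223 CPM in Control. They did not all go the same way: taken singly, 3 of the 6 were higher in YAP5SA and 1 was lower, at an edgeR adjusted p under 0.05. Yap1, the gene of the transgene product, had 52.9, 46.0 and 24.6 CPM in the YAP5SA cardiomyocytes and 17.9, 14.8 and 15.3 CPM in the Control cardiomyocytes, with a fitted log2 fold change of 0.43 (SE 0.29, adjusted p = 0.306, edgeR's quasi-likelihood test with Benjamini-Hochberg adjustment). Whether counts at Yap1 come from the transgene or from the mouse gene was not tested.

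The comparison of YAP5SA with Control cardiomyocytes asks what a YAP free of Lats control does to the G1 machinery of these cells. All 3 D-type cyclins and Ccne1 rose in YAP5SA cardiomyocytes, and no member fell past the threshold. In sums over cells, a change in the number of cells with a transcript and a change in its level per cell cannot be told apart. Of the 10 members, all tested, 4 were higher at an adjusted p under 0.05 and 0 lower, where 13.3% of the 11843 features tested were higher and 12.1% lower. The median log2 fold change was 1.17 over the members and 0.06 over all features tested. On the CPM scale, where no TMM factor is applied, the YAP5SA libraries all lay above the Control libraries for 8 of the 10 members, and for 50.2% of all features tested, and the groups overlapped for Cdk4 and Cdkn1b. Fitted fold changes are on the TMM scale, which sets the bulk of features near 0. With library totals in place of TMM the median of all features was 0.91, and 7 members passed in place of 4.

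**Figure D1:**
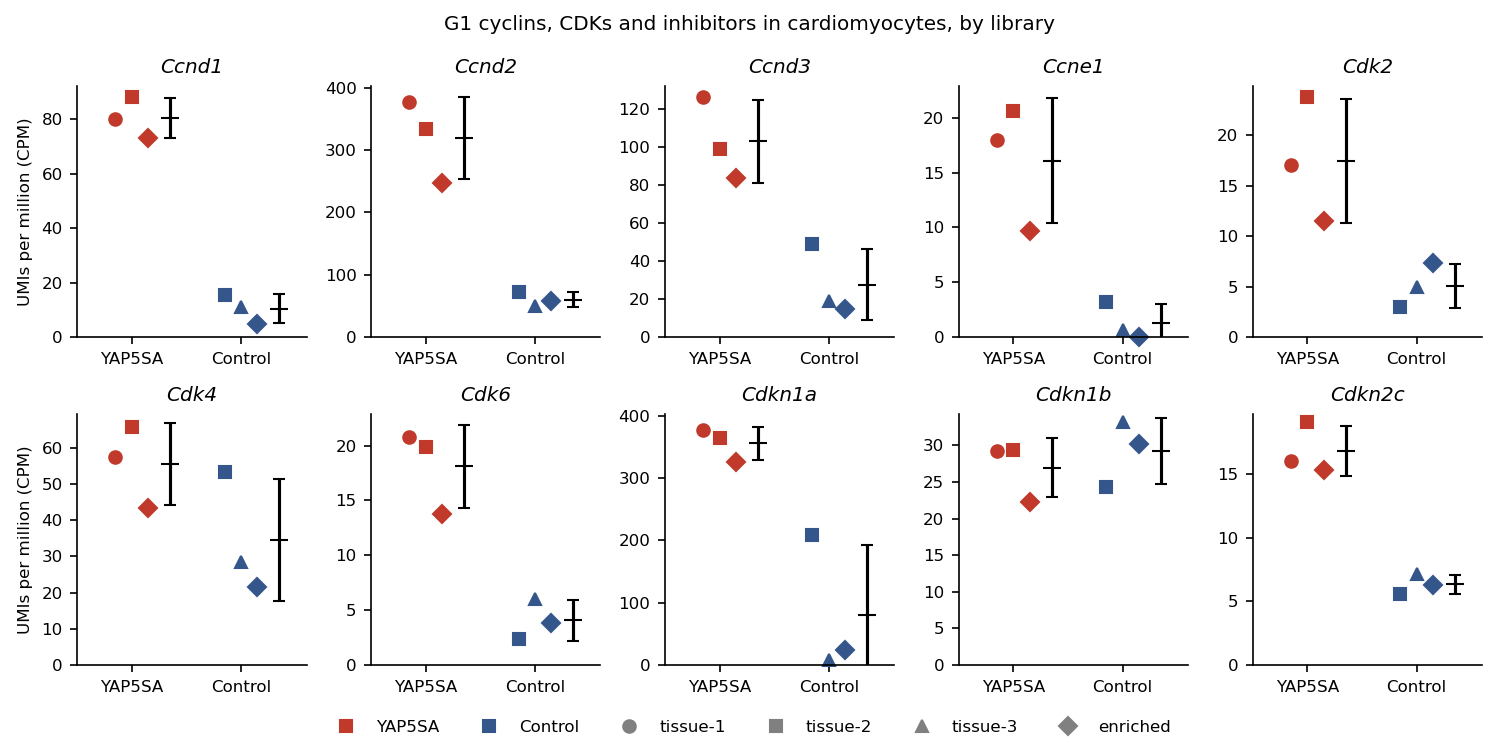
Level of each of the 10 genes in cardiomyocytes, in CPM of the class in the library (linear axes from 0); points are libraries, shaped by preparation, and bars are mean ± SD of the 3 libraries of a genotype. The YAP5SA libraries lie above all Control libraries in every panel but Cdk4 and Cdkn1b; for Cdkn1a, Control tissue-2 at 209.2 CPM stands apart from the other Control libraries.

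Ccnd1, which encodes cyclin D1, had 80.2, 88.1 and 73.3 CPM in YAP5SA tissue-1, YAP5SA tissue-2 and YAP5SA enriched, against 15.6, 10.9 and 4.86 CPM in Control tissue-2, Control tissue-3 and Control enriched. The lowest YAP5SA library was thus far above the highest Control library. Ccnd1 averaged 80.5 ± 7.38 CPM in YAP5SA and 10.5 ± 5.37 CPM in Control (SD, n = 3 each), and its log2 fold change was 2.18 (SE 0.35, adjusted p = 0.00949 by edgeR's quasi-likelihood test with Benjamini-Hochberg adjustment). Leaving out each library in turn gave 1.75 to 2.43, and the adjusted p passed 0.05 (0.0666) without YAP5SA tissue-2.

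Ccnd2, for cyclin D2, had 377.5, 334.0 and 247.3 CPM in the YAP5SA libraries in the same order, against 73.2, 50.05 and 57.3 CPM in the Control libraries. The groups did not overlap, and YAP5SA enriched was the lowest of its group. The means were 319.6 ± 66.3 CPM in YAP5SA and 60.2 ± 11.8 CPM in Control (SD, n = 3 each), with a log2 fold change of 1.54 (SE 0.28, edgeR adjusted p = 0.0124). The call was lost without YAP5SA tissue-1 (adjusted p = 0.0658) and without YAP5SA tissue-2 (adjusted p = 0.0793), while the log2 fold change stayed between 1.47 and 1.67.

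Ccnd3, for cyclin D3, had 126.5, 99.2 and 83.7 CPM in YAP5SA and 49.1, 19.0 and 14.9 CPM in Control. Control tissue-2 was the highest Control library and lay below every YAP5SA library. Its log2 fold change of 1.16 (SE 0.35) had an edgeR adjusted p of 0.0469, just inside the threshold, and the call held in 1 of the 6 fits that left out a library, that without Control tissue-2 (1.55, adjusted p = 0.00231). In the 4 libraries that share 1 way of naming features, YAP5SA tissue-1, YAP5SA tissue-2, Control tissue-2 and Control enriched, the log2 fold change of Ccnd3 was 0.49. Control enriched was the 1 enriched library among them, so the term for preparation took it up. That value thus compares YAP5SA tissue-1 and YAP5SA tissue-2 with Control tissue-2 alone.

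YAP acts on DNA through TEAD factors, whose core motif is GGAATG. RefSeq start sites on mouse build GRCm38.p6 gave 11 windows for 8 of the 10 members. Each ran from 250 bases before to 50 bases after the start. Ccnd1 and Ccnd2 had no window, so their promoters were not searched. Among the 8 members searched, Ccnd3 was the member with the TEAD letters, in 1 of its windows. They stand in capitals as CATTCC, the motif read on the other strand, 17 bases before the start of the window at chr17:47593217-47593516 (+ strand). The letters occur, on either strand, in 14.7% of the 32851 windows of this kind, so their presence is a description and not a binding site.
Ccnd3 promoter: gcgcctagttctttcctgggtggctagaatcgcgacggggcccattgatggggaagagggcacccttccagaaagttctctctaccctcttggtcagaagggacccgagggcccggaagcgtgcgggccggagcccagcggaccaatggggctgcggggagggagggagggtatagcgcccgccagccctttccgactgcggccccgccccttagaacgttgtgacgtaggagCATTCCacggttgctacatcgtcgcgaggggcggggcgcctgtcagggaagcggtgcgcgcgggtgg

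Ccne1, for cyclin E1, was sparse: it had 19, 26 and 43 UMIs in the YAP5SA cardiomyocytes and 11, 5 and 0 UMIs in the Control cardiomyocytes. On the CPM scale this was 17.9, 20.6 and 9.70 CPM in YAP5SA and 3.23, 0.684 and 0 CPM in Control, and the 0 in Control enriched allows up to 1.04 CPM (3 counts, counting error only). The groups did not overlap. Its log2 fold change was 3.03 (SE 0.73, edgeR adjusted p = 0.0241), and leaving out libraries gave 2.56 to 4.05 with adjusted p up to 0.124.

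No kinase passed the test, though Cdk6 and Cdk2 had higher CPM in each YAP5SA library than in any Control library. Cdk6, a partner of the D-type cyclins, had 20.8, 19.8 and 13.8 CPM in YAP5SA and 2.35, 6.02 and 3.82 CPM in Control, with a log2 fold change of 1.17 (SE 0.48, edgeR adjusted p = 0.115). Cdk2, the partner of cyclin E, had 17.0, 23.8 and 11.5 CPM in YAP5SA and 2.94, 4.92 and 7.29 CPM in Control, with a log2 fold change of 0.86 (SE 0.49, adjusted p = 0.228). In the 4 libraries with joined feature names the log2 fold changes were 2.37 for Cdk6 and 2.08 for Cdk2. There too Control tissue-2 was the 1 Control library compared, and it was the lowest Control library for both genes. Cdk4, the other partner of the D-type cyclins, had 57.6, 65.9 and 43.3 CPM in YAP5SA and 53.5, 28.4 and 21.5 CPM in Control, and here Control tissue-2 exceeded YAP5SA enriched. The adjusted p of Cdk4 was 0.815, and its log2 fold change of -0.10 with TMM was 0.73 with library totals, so that no direction can be given for it.

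Among the windows of the kinases, Cdk2 held the letters of an E2F motif, TTTNNCGC, and Cdk4 held the E-box CACGTG, the motif of MYC and related factors, more than once. In the Cdk2 window at chr10:128705002-128705301 (- strand) the capitals mark the E2F letters read on the other strand, 140 bases before the start. In the Cdk4 window at chr10:127063285-127063584 (+ strand) the capitals mark 4 E-boxes, at 172, 118, 98 and 11 bases before the start. Of all 32851 windows, 5.17% held the E2F letters and 7.15% an E-box, and 8 windows held 4 or more E-boxes. The window of Cdk6 held both motifs and 1 of those of Cdkn2c an E-box. None of the 4 motifs searched (the fourth was AP-1, TGANTCA, in 7.81% of windows) was in a window of Ccne1, Cdkn1a or Cdkn1b.
Cdk2 promoter: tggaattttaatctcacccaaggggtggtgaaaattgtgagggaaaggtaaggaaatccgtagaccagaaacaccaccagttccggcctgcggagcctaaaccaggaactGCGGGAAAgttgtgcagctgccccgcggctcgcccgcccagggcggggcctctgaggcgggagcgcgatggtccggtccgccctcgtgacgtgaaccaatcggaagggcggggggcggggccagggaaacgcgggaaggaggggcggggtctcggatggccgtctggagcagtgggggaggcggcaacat
Cdk4 promoter: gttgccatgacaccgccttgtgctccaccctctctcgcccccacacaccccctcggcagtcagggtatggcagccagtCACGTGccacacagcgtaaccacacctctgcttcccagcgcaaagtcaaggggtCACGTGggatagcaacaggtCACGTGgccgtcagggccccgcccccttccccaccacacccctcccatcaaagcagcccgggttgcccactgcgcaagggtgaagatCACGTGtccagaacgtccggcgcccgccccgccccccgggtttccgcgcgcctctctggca

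No inhibitor passed the test in cardiomyocytes. Cdkn1a, for p21, had 377.5, 364.2 and 326.0 CPM in YAP5SA and 209.2, 7.52 and 23.3 CPM in Control. The YAP5SA libraries were alike, and Control tissue-2 was many times above the other Control libraries but below every YAP5SA library. Its log2 fold change of 1.69 had an SE of 1.04 and an edgeR adjusted p of 0.269. Without Control tissue-2 the log2 fold change was 3.84 (adjusted p = 0.000299). In the 4 libraries with joined names it was 0.12, where Control tissue-2, the high Control library, was the 1 Control library compared. The libraries also differed in the median share of mitochondrial UMIs per cell, 2.95%, 2.40% and 6.6% in the YAP5SA libraries and 2.32%, 16.0% and 13.4% in Control tissue-2, Control tissue-3 and Control enriched; the part of this in the level of Cdkn1a was not tested.

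Cdkn1b, for p27, had 29.3, 29.4 and 22.3 CPM in YAP5SA and 24.4, 33.2 and 30.2 CPM in Control. The groups overlapped, and the means, 27.0 ± 4.03 and 29.3 ± 4.49 CPM (SD, n = 3 each), lay within the spread of either group. On the TMM scale its log2 fold change was -1.03 (SE 0.32, edgeR adjusted p = 0.0510), and it passed with RLE size factors (adjusted p = 0.0450) and with DESeq2 (adjusted p = 0.0369). With library totals it was -0.14. Cdkn2c, for p18, had 16.0, 19.0 and 15.3 CPM in YAP5SA and 5.58, 7.11 and 6.25 CPM in Control, without overlap, and a log2 fold change of 0.50 (SE 0.35, adjusted p = 0.323) that reached 1.40 and passed with library totals.

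The calls depended on which cells were summed. Without the cluster YAP5SAcm, which held 212, 203 and 481 cells of YAP5SA and 50, 33 and 16 cells of Control, 0 of 10 members passed with edgeR and 2 had an unadjusted p under 0.05. In that fit 16 of 10336 features passed. Ccnd1 kept a log2 fold change of 1.51 (adjusted p = 0.145) and Ccnd2 one of 1.24 (adjusted p = 0.144). In cells with no UMI of a fibroblast or macrophage marker, 2 of the 8 members tested passed, Ccnd1 at 2.12 (adjusted p = 0.0292) and Ccnd2 at 1.61 (adjusted p = 0.0174). The fitted log2 fold changes of these cyclins were about as large in cells without such UMIs as in all cardiomyocytes. Ccnd1 in these cells had 36.1, 120.7 and 52.98 CPM in YAP5SA tissue-1, YAP5SA tissue-2 and YAP5SA enriched, from 7, 6 and 61 UMIs. In all cardiomyocytes the YAP5SA libraries lay between 73.3 and 88.1 CPM. Its levels in Control tissue-2, Control tissue-3 and Control enriched were 12.2, 11.6 and 4.59 CPM. The part of other cells' RNA in the level of Ccnd1 was not tested.

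**Figure D2:**
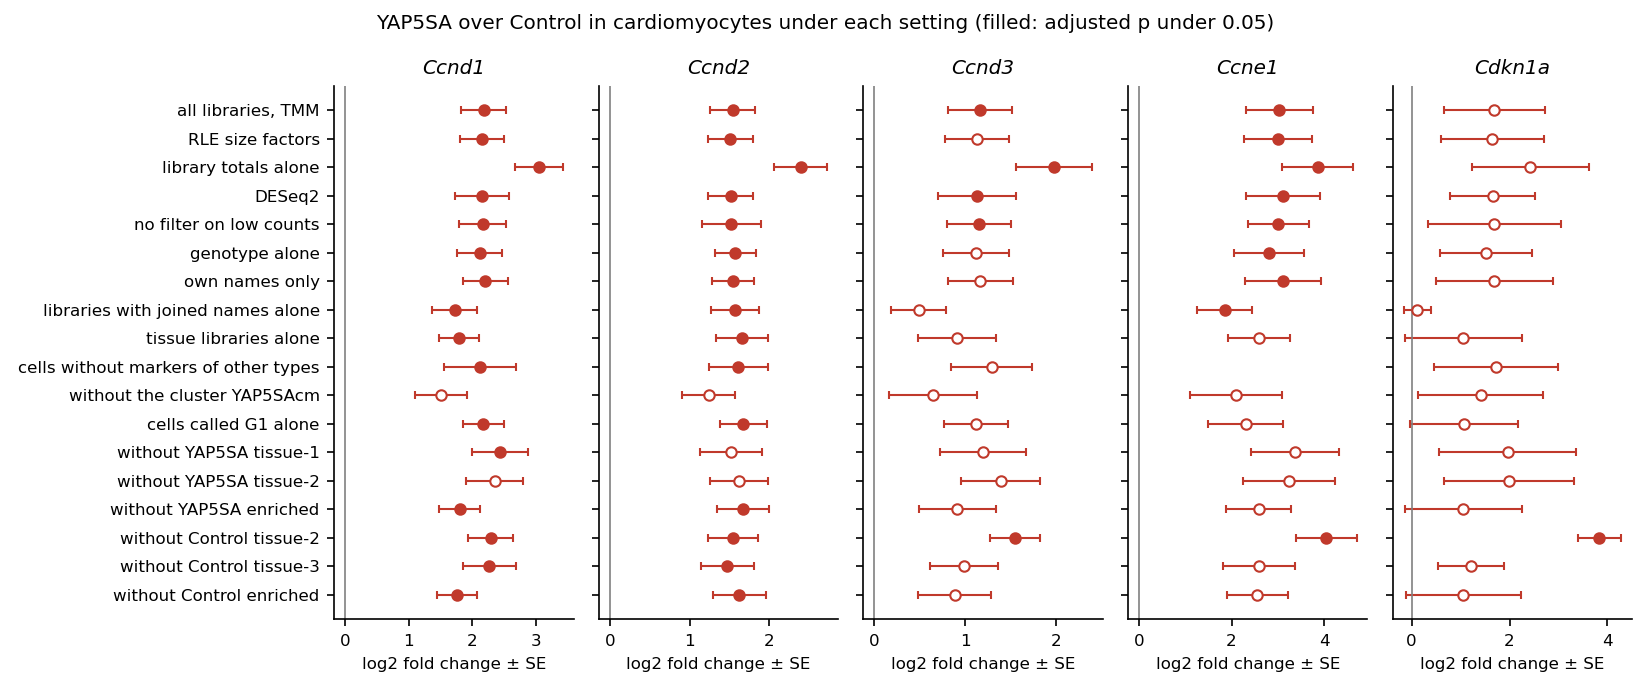
Log2 fold change ± SE (TMM scale unless named otherwise) of YAP5SA over Control in cardiomyocytes for 5 members, with 1 line per setting of the test or set of cells; filled points have an adjusted p under 0.05. Ccnd1, Ccnd2, Ccnd3 and Ccne1 stay above 0 in every setting drawn, while Cdkn1a runs between 0.12 and 3.84. In the libraries with joined names alone, where Cdkn1a is at 0.12, Control tissue-2 is the 1 Control library compared.

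Within single cardiomyocyte clusters the comparison had less depth. In YAP5SAcm 1 of 10 members passed, where 5.65% of 7014 features were higher: Ccnd3, with 147.5, 121.6 and 110.7 CPM in YAP5SA and 27.4, 23.9 and 37.0 CPM in Control, and a log2 fold change of 1.98 (SE 0.62, edgeR adjusted p = 0.0252). Of the fits that left out a library, the call held in 1, that without Control enriched, while the log2 fold change stayed between 1.82 and 2.12. Ccnd1 had 100.5, 98.2 and 116.7 CPM in YAP5SA cells of this cluster and 13.7, 47.7 and 0 CPM in its Control cells, where the 0 allows up to 110.9 CPM because Control enriched gave 27054 UMIs there (log2 fold change 1.85, adjusted p = 0.0532). Cdkn1a had 477.2, 410.7 and 367.9 CPM in YAP5SA and 636.1, 71.6 and 295.7 CPM in Control, so that the few Control cells placed in this cluster overlapped YAP5SA cells for the inhibitor. In CM2 Cdkn1a averaged 627.6 ± 218.4 CPM in YAP5SA and 155.6 ± 232.8 CPM in Control (SD, n = 3 each), and in CM1 151.9 ± 47.1 CPM and 70.7 ± 101.8 CPM. With edgeR no member that could be tested passed in the other 15 clusters. Features passed there at 0.0216% in CM1, 4.7% in CM2, 2.35% in CF4, 1.5% in Mac1, 0.79% in Mac2, 1.42% in Mac4, 0.81% in EpiC and 0% in the other 8. Up to 3 members had an unadjusted p under 0.05. Not all 10 members could be tested: 8 were in CM1, 4 in CM2 and 6 in CM3, with median log2 fold changes of 0.11, 1.34 and 1.22. CF1 and EpiC had 5 tested, EndoC 6, Mo 7, CF2 and EC 9 and SMC 3. Mac3 was not tested, since 1 of the Control libraries, Control tissue-2, had at least 10 cells there.

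The relative use of the D-type cyclins was set out as shares of their summed UMIs, which are counts of 3' ends and carry no length correction. Ccnd2 held 63.3% ± 1.86 of these UMIs in YAP5SA cardiomyocytes and 63.3% ± 10.6 in Control cardiomyocytes (SD, n = 3 each), a difference within the spread (exact two-sided permutation p = 1.0). Ccnd1 held 13.7%, 16.9% and 18.1% in the YAP5SA libraries and 11.3%, 13.7% and 6.31% in the Control libraries. The lowest YAP5SA library and the highest Control library were level at this rounding, with means of 16.3% ± 2.27 and 10.4% ± 3.76 and an exact permutation p of 0.1, which is the smallest that 3 against 3 libraries allow. Ccnd3 held 20.5% ± 1.33 in YAP5SA and 26.2% ± 8.40 in Control (exact permutation p = 0.3). The 3 genes were each higher in YAP5SA cardiomyocytes. With 3 against 3 libraries the permutation test cannot go under 0.05, so it cannot decide whether their shares changed. In macrophages, by contrast, Ccnd1 held 71.0% ± 1.57 of the UMIs in 3 YAP5SA libraries and 64.5% ± 4.39 in 2 Control libraries.

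**Figure D3:**
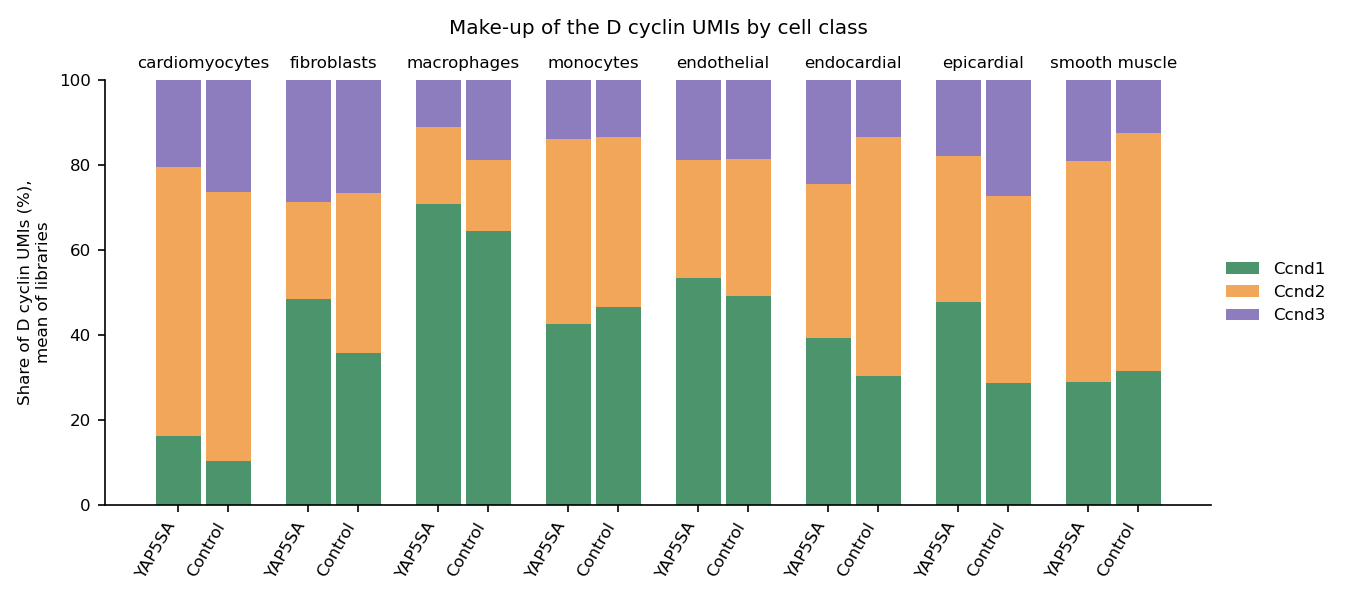
Share (%) of the summed Ccnd1, Ccnd2 and Ccnd3 UMIs held by each gene in each cell class, as the mean of the libraries of a genotype with at least 10 cells of the class. In cardiomyocytes Ccnd2 holds 63.3% in both genotypes, and in macrophages Ccnd1 holds 71.0% in YAP5SA and 64.5% in Control.

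Other genes of the G1/S switch were read from a list of 37 regulators, of which 32 could be tested in cardiomyocytes. Of these 10 were higher and 2 lower, where 13.3% of all features tested were higher and 12.1% lower, and the median log2 fold change was 0.48 over the list and 0.06 over all features. The activators among them were E2f1, an E2F factor (22, 18 and 42 UMIs in the YAP5SA libraries and 1, 0 and 0 UMIs in the Control libraries, log2 fold change 6.30, SE 0.83, adjusted p = 0.00551), Ccna2, the S phase cyclin (4.48, adjusted p = 0.00596), Cdc25a, the phosphatase that activates Cdk2 (2.08, adjusted p = 0.0112), Myc (1.93, adjusted p = 0.0173) and Cks1b, a CDK subunit that serves the turnover of p27 (1.64, adjusted p = 0.0101). With brakes on the cycle, Cdkn1c, for the inhibitor p57, had 92.5, 98.4 and 92.3 CPM in YAP5SA and 12.04, 11.2 and 4.17 CPM in Control (2.57, adjusted p = 0.00836), and E2f4, a mainly repressive E2F, rose by 2.28 (adjusted p = 0.0242). Ambra1, which serves the turnover of D-type cyclins, rose by 1.61 (adjusted p = 0.0348), Lin54, of the DREAM complex, by 1.31 (adjusted p = 0.0310), and Mnat1, of the CDK-activating kinase, by 0.91 (adjusted p = 0.0384). Ccnh, the cyclin of that same kinase, fell to 34.9, 24.6 and 30.7 CPM in YAP5SA, against 47.9, 68.5 and 76.4 CPM in Control (log2 fold change -1.99, adjusted p = 0.0106), and Usp28, a deubiquitinase, had a log2 fold change of -1.47 (adjusted p = 0.0271). All adjusted p-values here are from the same edgeR fit over 11843 features.

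Since Cdkn1a is a p53 target, 15 other genes of the p53 pathway were read beside it. In cardiomyocytes 3 were higher, Eda2r (3.38, adjusted p = 0.00859), Sesn2 (2.89, adjusted p = 0.0207) and Zmat3 (2.68, adjusted p = 0.0119), and 2 lower, Btg2 (-2.25, adjusted p = 0.00836) and Ccng1 (-1.56, adjusted p = 0.0308), in edgeR's test. Btg2, an antiproliferative gene, had 71.7, 88.1 and 123.0 CPM in YAP5SA and 239.7, 231.4 and 248.2 CPM in Control. These 3 and 2 of 15 genes stand beside 13.3% of all features higher and 12.1% lower, so the counts were near the background. The median log2 fold change was 0.87 over the 15 genes and 0.06 over all features.

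Outside cardiomyocytes no member passed in edgeR's test. In fibroblasts 0 of 10 passed, where 2.43% of 11455 features did, in macrophages 0 of 10, where 0.59% of 12871 did, in epicardial cells 0 of 5, where 0.81% of 2591 did, in endothelial cells 0 of 9, in monocytes 0 of 7, in endocardial cells 0 of 6 and in smooth muscle cells 0 of 3, where 0% of features did. At an unadjusted p under 0.05 there were 2 in macrophages, 1 in endocardial cells and 0 in the rest, and DESeq2 called 0 in each of these classes. Counts of members at an unadjusted p, here and elsewhere, stand without the share of all features and are a description. The 2 in macrophages were Ccnd1 and Ccnd2. Ccnd1 had 652.7, 541.5 and 566.0 CPM in YAP5SA tissue-1, YAP5SA tissue-2 and YAP5SA enriched and 266.4 and 322.3 CPM in Control tissue-2 and Control tissue-3, and Ccnd2 had 142.2, 148.3 and 151.6 CPM in YAP5SA and 60.9 and 95.5 CPM in Control. For both genes the YAP5SA and Control libraries did not overlap, and the share of all features without overlap in macrophages was not computed. The fitted log2 fold changes were 0.90 and 0.85, with an edgeR adjusted p of 0.491 each. Control enriched had fewer than 10 macrophages. With the term for preparation, these values thus compare the 2 YAP5SA tissue libraries with the 2 Control tissue libraries. Leaving out either Control library left 1 Control library, with the spread taken from the 2 YAP5SA tissue libraries and the lone Control library assumed to vary like them. That assumption was not tested, so calls of members in these fits are not read here.

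The genotype effect was larger in cardiomyocytes than in fibroblasts for the D-type cyclins D1 and D2, and for D1 this depended on single libraries. This was tested as the difference between 2 log2 fold changes, with libraries as blocks, where positive values mean a larger effect in cardiomyocytes. Against fibroblasts 3 of 10 members were higher, where 9.73% of 13054 features were: Ccnd2 by 2.21 (SE 0.50, edgeR adjusted p = 0.000365), Ccnd1 by 1.87 (SE 0.49, adjusted p = 0.00302) and Cdkn1a by 1.70 (SE 0.57, adjusted p = 0.0252). Leaving out each library in turn, Ccnd2 passed in all 6 fits. Ccnd1 did not pass without YAP5SA tissue-1 (adjusted p = 0.0532), without YAP5SA tissue-2 (adjusted p = 0.0912) or without Control tissue-3 (1.27, adjusted p = 0.129). For Cdkn1a, dropping Control tissue-3 gave -0.01, and dropping Control tissue-2 gave 3.69. In fibroblasts Ccnd2 had 112.2, 82.0 and 98.0 CPM in YAP5SA and 167.4, 121.0 and 335.1 CPM in Control, and the last of these libraries held 10 fibroblasts. Against endothelial cells 2 members were higher, where 6.61% of 11721 features were: Ccnd1 by 1.93 (SE 0.42, adjusted p = 0.00159) and Ccnd2 by 1.57 (SE 0.41, adjusted p = 0.00721). Ccnd1 passed in all 6 fits that left out a library, whereas Ccnd2 did not pass without Control tissue-3 (1.33, adjusted p = 0.0836). Against macrophages 0 of 10 passed, where 12.8% of 13436 features passed in either direction, and 0 had an unadjusted p under 0.05; the value for Ccnd1 was 0.78 (adjusted p = 0.224).

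**Figure D4:**
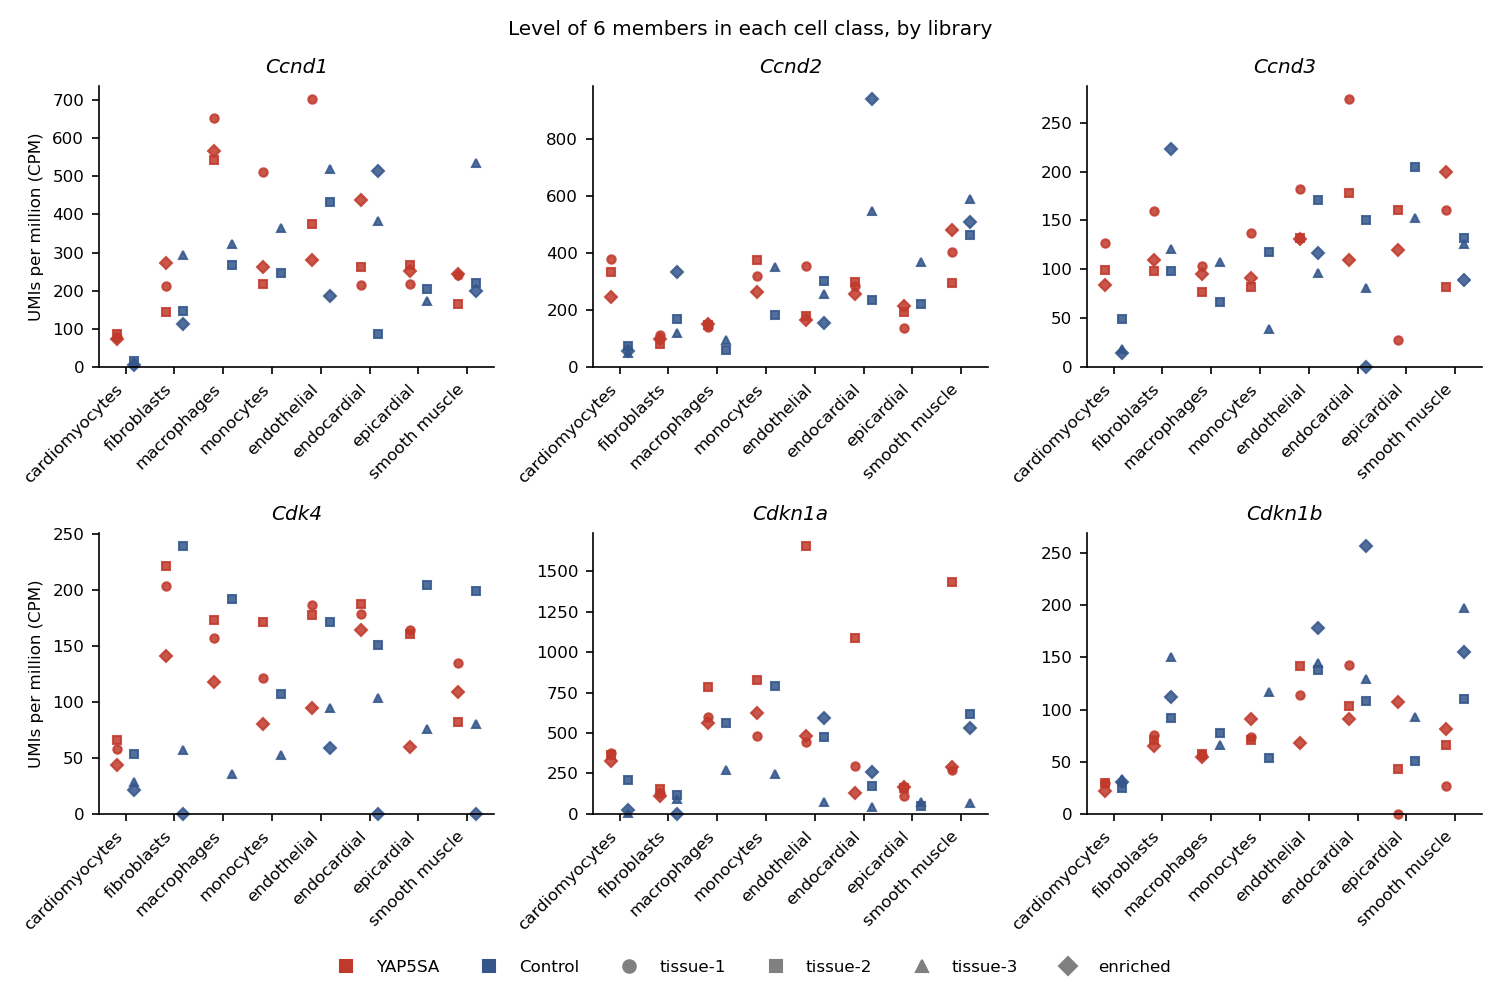
Level of 6 members in each of the 8 cell classes, in CPM of the class in the library (linear axes from 0); each point is a library with at least 10 cells of the class, YAP5SA left of Control. Ccnd1 lies at 4.86 to 88.1 CPM in cardiomyocytes, below every library of the other classes but the endocardial cells of Control tissue-2 (86.2 CPM), and Cdk4 is low in YAP5SA enriched and Control tissue-3 in most classes.

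Across classes, the place of cardiomyocytes differed between genotypes, and levels are given here by genotype, as medians over libraries. In YAP5SA hearts cardiomyocytes were the lowest of 8 classes for 4 members, Ccnd1, Cdk4, Cdkn1b and Cdkn2c. In Control hearts they were the lowest for 8 members, those 4 and Ccnd2, Ccnd3, Cdk6 and Cdkn1a. Ccnd1 in YAP5SA was highest in macrophages (566.0 CPM), then in endothelial cells (375.7), monocytes (262.6), endocardial cells (262.2), epicardial cells (250.8), smooth muscle cells (241.8), fibroblasts (213.3) and cardiomyocytes (80.2). In Control it was highest in endothelial cells (431.5 CPM), then in endocardial cells (381.6), monocytes (305.1), macrophages (294.3), smooth muscle cells (220.5), epicardial cells (188.9), fibroblasts (147.1) and cardiomyocytes (10.9). In both orders the ranges of neighbours overlapped but for the last step, where every cardiomyocyte library was below every fibroblast library.

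Ccnd2 in YAP5SA cardiomyocytes, at a median of 334.0 CPM, was second to smooth muscle cells (403.0) and above fibroblasts (98.0), the lowest class, and its range overlapped those of smooth muscle cells and monocytes (320.8). In Control its median of 57.3 CPM in cardiomyocytes was the lowest, overlapping macrophages (78.2). Ccnd3 in YAP5SA had 99.2 CPM in cardiomyocytes, above macrophages (95.7) and monocytes (91.3), and every pair of neighbours overlapped. In Control Ccnd3 had 19.0 CPM in cardiomyocytes, next to monocytes (78.3), and these overlapped.

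Cdkn1a in YAP5SA had its highest medians in monocytes (622.2 CPM) and macrophages (596.9 CPM), then endothelial cells (480.2), cardiomyocytes (364.2), endocardial cells (297.6), smooth muscle cells (290.5), epicardial cells (160.8) and fibroblasts (129.8). Its range in cardiomyocytes lay below that of endothelial cells and overlapped that of endocardial cells. In Control it ran from smooth muscle cells (532.8 CPM), monocytes (518.8), endothelial cells (472.2) and macrophages (416.6) to endocardial cells (172.4), fibroblasts (91.4), epicardial cells (61.5) and cardiomyocytes (23.3), and of these neighbours macrophages and endocardial cells did not overlap. Control tissue-3 was low for it outside cardiomyocytes as well, with 268.6 CPM in macrophages and 76.1 CPM in endothelial cells, against 564.7 and 472.2 CPM in Control tissue-2. Cdk6 was set apart in macrophages (77.6 to 150.4 CPM) and monocytes (84.4 to 149.5 CPM), both above every fibroblast library, whose highest was 68.1 CPM. Cdk4 had 35.8 CPM in macrophages of Control tissue-3 and 191.8 CPM in those of Control tissue-2, and the Control tissue-3 and YAP5SA enriched libraries, which do not join feature names, were low for it within their genotype in most classes; whether the way of counting sets this was not tested. Cdkn1b had 22.3 to 33.2 CPM in cardiomyocytes, below all macrophage libraries (54.4 to 77.6 CPM) and all endothelial libraries (68.3 to 178.2 CPM).

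The deposited table gives each cell a phase call by the authors, of which S and G2M are taken here as cycling. Which genes made the call is not given in the sources used here, so members may have taken part in it. In cardiomyocytes 47, 54 and 139 cells of the YAP5SA libraries and 10, 44 and 37 cells of the Control libraries were called S or G2M. Cells called S or G2M had higher Cdkn2c, Ccne1, Cdk2 and Cdkn1a and lower Ccnd2 than cells called G1, tested within libraries. That made 4 members higher and 1 lower of 10, where 7.61% of 9431 features were higher and 10.3% lower. In edgeR's test the log2 fold changes of S or G2M over G1 were 2.73 for Cdkn2c (SE 0.36, adjusted p = 2.40e-12), 2.40 for Ccne1 (SE 0.40, adjusted p = 1.22e-07), 2.09 for Cdk2 (SE 0.37, adjusted p = 5.13e-07), 1.37 for Cdkn1a (SE 0.23, adjusted p = 2.44e-07) and -0.67 for Ccnd2 (SE 0.23, adjusted p = 0.0228). The call for Ccnd2 was lost with library totals, at -0.30, and in 4 of the 6 fits that left out a library. It held without Control tissue-2 and without Control enriched, and the other fits had adjusted p of 0.0530 to 0.149, with log2 fold changes of -0.73 to -0.58.

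Cdkn1a, though it encodes an inhibitor of the cycle, was higher in the YAP5SA cardiomyocytes called S or G2M than in those called G1. Cdkn1a had 1279.5 CPM in cells called S or G2M and 211.3 CPM in cells called G1 in YAP5SA tissue-1, 1056.0 and 192.2 CPM in YAP5SA tissue-2, and 827.5 and 261.7 CPM in YAP5SA enriched. In the Control libraries the same pairs were 168.6 and 209.4 CPM in tissue-2, 0 and 7.63 CPM in tissue-3, and 15.6 and 23.4 CPM in enriched. The value was higher in S or G2M cells in all 3 YAP5SA libraries. The S or G2M sets of the Control libraries held 3, 0 and 1 UMIs of Cdkn1a, so no direction can be read in a single Control library. The difference between genotypes was tested as a phase by genotype term, positive where the phase effect is larger in YAP5SA: for Cdkn1a it was 3.45 (SE 0.58, edgeR adjusted p = 2.34e-06), and it passed in all 6 fits that left out a library, at 3.05 to 3.89. In fibroblasts 0 members passed for this term, where 0.0191% of 10464 features did, and 1 had an unadjusted p under 0.05; in macrophages Ccnd1 passed at -0.92, where 0.0867% of 9222 features were lower, and did not pass without YAP5SA tissue-1 (adjusted p = 0.0926), Control tissue-2 (0.760) or Control tissue-3 (0.134).

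That term passed for 3 of 10 members, where 1.76% of 9431 features were higher. Cdkn2c had 72.8, 71.7 and 93.3 CPM in S or G2M cells and 5.59, 5.94 and 5.34 CPM in G1 cells of the YAP5SA libraries, and 0, 9.40 and 0 CPM and 5.61, 7.08 and 6.39 CPM in those of the Control libraries, with a term of 4.50 (SE 1.08, adjusted p = 0.00456). The Control S or G2M sets held 0, 1 and 0 UMIs of Cdkn2c, so the size of this term also depends on the prior count. It was 10.07 without Control tissue-3 (adjusted p = 0.0597) and 3.90 without Control enriched (adjusted p = 0.0635), and passed in the other 4 fits that left out a library. Cdk2 had 60.6, 63.8 and 61.5 CPM in S or G2M cells of YAP5SA and 0 UMIs in all 3 sets of Control S or G2M cells, so its fitted term depends on the prior count and is no bound, and its call held in 1 of the 6 fits that left out a library and was lost with library totals (adjusted p = 0.0702). The Control sets were shallow, with 17796, 106423 and 64065 UMIs, and a count of 0 there allows up to 168.6, 28.2 and 46.8 CPM; Ccne1, with 66.7, 51.8 and 49.6 CPM in YAP5SA S or G2M cells, was also at 0 in all 3. The median depth per cell was 1713, 2846 and 2065 UMIs in S or G2M cells of the YAP5SA libraries and 1380.5, 1883 and 1427 in those of the Control libraries.

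**Figure D5:**
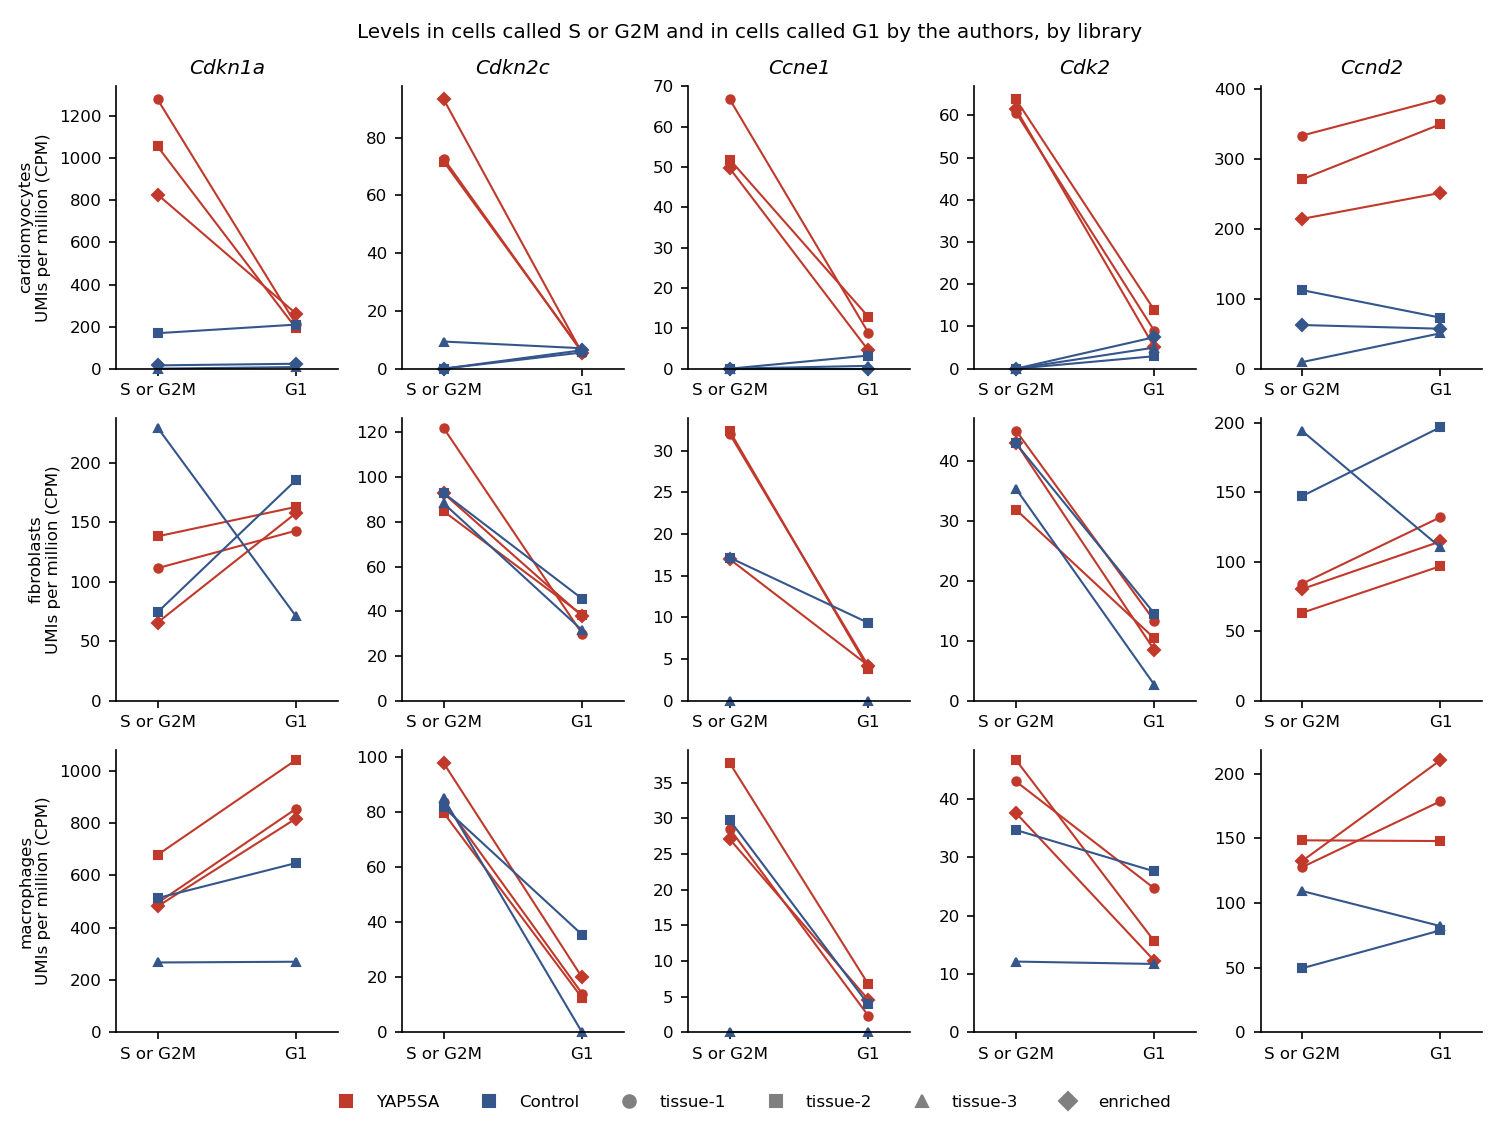
Level of 5 members in cells the authors call S or G2M (left) and G1 (right) within cardiomyocytes, fibroblasts and macrophages, in CPM (linear axes from 0); a line joins both values of a library. In cardiomyocytes Cdkn1a reaches 827.5 to 1279.5 CPM in S or G2M cells of the 3 YAP5SA libraries, whereas in macrophages the YAP5SA lines run the other way.

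Macrophage markers moved with the phase call in cardiomyocytes, and fibroblast markers did so in some libraries. The macrophage markers summed to 794, 2004 and 1492 CPM in S or G2M cells and 293, 681 and 362 CPM in G1 cells of the YAP5SA libraries, and to 1742, 752 and 109 CPM and 267, 133 and 18.8 CPM in those of the Control libraries. The fibroblast markers summed to 376, 586 and 2036 CPM in S or G2M cells and 478, 579 and 466 CPM in G1 cells of YAP5SA. In Control they summed to 1236, 1052 and 312 CPM and 208, 404 and 72.8 CPM. The cardiomyocyte markers summed to 17033, 14190 and 27151 CPM in S or G2M cells and 38419, 32154 and 44528 CPM in G1 cells of the YAP5SA libraries. In Control they summed to 64003, 66893 and 88722 CPM and 63631, 77017 and 88496 CPM. In macrophages themselves the macrophage markers summed to 21430 to 22447 CPM in the YAP5SA libraries and Cdkn1a had 564.1 to 783.6 CPM over all cells of the class and 854.3, 1040.9 and 816.9 CPM in those called G1. The part of other cells' RNA in the cardiomyocyte values was not tested. In cardiomyocytes without a UMI of any fibroblast or macrophage marker, Cdkn1a had 849.7 CPM in 14 S or G2M cells and 129.9 CPM in G1 cells of YAP5SA tissue-1, and 960.5 CPM in 60 S or G2M cells and 204.8 CPM in G1 cells of YAP5SA enriched. Its log2 fold change in these cells was 1.93 (SE 0.32, adjusted p = 5.45e-07, edgeR), while Ccne1, Cdk2 and Cdkn2c were too sparse there to be tested. That fit did not hold YAP5SA tissue-2 and Control tissue-2, which had 6 and 4 such S or G2M cells. The S or G2M sets of Control tissue-3 and Control enriched in it both held 0 UMIs of Cdkn1a. Within the cluster YAP5SAcm the log2 fold change of Cdkn1a was 2.14 (SE 0.15) and that of Cdkn2c 3.74 (SE 0.40).

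Fibroblasts and macrophages shared part of this pattern. In fibroblasts 5 members were higher in S or G2M cells and 1 lower, where 10.1% of 10464 features were higher and 13.7% lower, and in macrophages 5 were higher and 3 lower, where 14.4% of 9222 features were higher and 14.5% lower. Ccne1 (2.32 in fibroblasts, 2.63 in macrophages), Cdk2 (1.71, 1.21), Cdkn2c (1.25, 2.39) and Cdk4 (0.50, 0.96) were higher in both, and Ccnd2 (-0.57, -0.35) was lower in both, all past the edgeR threshold. Ccnd1 went 0.20 in fibroblasts and -0.33 in macrophages. Cdkn1a was lower in cycling macrophages (log2 fold change -0.69, SE 0.06, adjusted p = 5.57e-30), with 494.4, 678.2 and 481.5 CPM in S or G2M cells and 854.3, 1040.9 and 816.9 CPM in G1 cells of the YAP5SA libraries. The difference of its phase effect between cardiomyocytes and macrophages was 1.86 (SE 0.28, adjusted p = 2.62e-08), where 2.91% of 11129 features were higher, and it passed in all 6 fits that left out a library. Against fibroblasts that difference was 1.95 for Cdkn1a (adjusted p = 0.1005) and 1.41 for Cdkn2c (SE 0.33, adjusted p = 0.00137), the 1 member of 10 that passed, where 2.11% of 11943 features were higher. The call for Cdkn2c was lost without YAP5SA enriched (0.63, adjusted p = 0.426) and without YAP5SA tissue-2 (1.14, adjusted p = 0.0621).

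Cyclins D1 and D2 were also higher in YAP5SA among cells that were not called cycling. In cardiomyocytes called G1 alone, Ccnd1 had a log2 fold change of YAP5SA over Control of 2.18 (adjusted p = 0.00854) and Ccnd2 of 1.67 (adjusted p = 0.0133), close to those in all cardiomyocytes. Ccnd3 stood at 1.12 (adjusted p = 0.0578) and Ccne1 at 2.31 (adjusted p = 0.0812) in these cells. Cdk2 had a log2 fold change of -0.02 there and Cdkn2c of -0.97 (adjusted p = 0.148), against 0.86 and 0.50 in all cardiomyocytes, and Cdkn1a one of 1.07 (adjusted p = 0.530); all are edgeR values.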

How the data were processed

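The authors deposited UMI counts of 22281 features in 21706 cells of 6 libraries, and a table with each cell's library, 17 clusters and phase call. Picard, STAR and Seurat 2.3.4 were used, per the submitters' processing notes; settings, genome build and annotation are not given in the sources used here. The library called YAP5SA tissue-1 was matched to its sample by elimination, since its number differs from the title. A deposited table of scaled values was not used.

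Overlapping genes have joined names in 4 libraries, so 854 joined names were merged with their parts (702 families), and features counted under 1 way of naming alone (1228) were not tested. No member is in a joined name. Each of the 17 clusters was assigned to 1 of 8 classes from its name, and UMI counts were summed per library and class, with at least 10 cells. The test was that of edgeR 4.0.16 under R 4.3.3 (scaling by TMM, filterByExpr, robust quasi-likelihood F test, terms for preparation and genotype) with Benjamini-Hochberg adjustment over all features of a fit, at 0.05. Class by genotype, phase, phase by class and phase by genotype effects had the library as a block. Shares of the D-type cyclins were compared with exact permutation tests (scipy 1.17.1). On data simulated for the cardiomyocyte comparison, 141 of 200 genes with 4-fold changes were recovered among 11594 tested, with 4 false calls. The changed genes were drawn from features above a floor of mean CPM, and all features had the same dispersion. The recovery therefore does not cover the sparse members Ccne1, Cdk2, Cdk6 and Cdkn2c. Promoter windows came from RefSeq.

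Totals of 3382656 to 13483791 UMIs per library limit the precision; limits for a count of 0 take 3 counts and cover counting error only. No doublet caller was run, so doublets may remain. The labels do not say that libraries came from separate animals, so p-values measure the spread between libraries. Alternatives were RLE size factors, library totals, DESeq2 1.42.0, no filter, genotype alone, tissue libraries alone, at least 30 cells, a replicate block, own names, libraries with joined names, cells without fibroblast or macrophage markers, cells thinned to 1000 UMIs, and each library left out; fits without YAP5SAcm, in YAP5SAcm alone or in G1 cells, the marker-free phase fit, the phase by class and phase by genotype terms and the cyclin shares were added after seeing the data. All 10 members were named in every class, and of 37 G1 regulators and 15 p53 genes those that passed in cardiomyocytes. The members and lists were chosen with earlier results of these data known.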

Additional observations from a re-analysis of the deposited data

Results flagged for a closer look

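The difference of the YAP5SA over Control effect between cell classes passed edgeR's test for 3 members against fibroblasts and 2 against endothelial cells. For Ccnd1 the log2 fold change was larger in cardiomyocytes than in fibroblasts by 1.87 and than in endothelial cells by 1.93, for Ccnd2 by 2.21 and 1.57, and for Cdkn1a than in fibroblasts by 1.70. Without Control tissue-3 the last was -0.01. For Ccnd1 against fibroblasts the test was not passed without YAP5SA tissue-1 (adjusted p = 0.0532), YAP5SA tissue-2 (0.0912) or Control tissue-3 (0.129), and for Ccnd2 against endothelial cells without Control tissue-3 (adjusted p = 0.0836, edgeR).

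The effect of an S or G2M call also differed between classes. For Cdkn1a it was larger in cardiomyocytes than in macrophages by 1.86 on the log2 scale, and for Cdkn2c larger than in fibroblasts by 1.41. The value for Cdkn2c was 0.63 without YAP5SA enriched and 1.14 without YAP5SA tissue-2, and passed in neither fit.

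Within cardiomyocytes the phase effect differed between YAP5SA and Control by 3.45 for Cdkn1a, 4.50 for Cdkn2c and 9.25 for Cdk2 on the log2 scale. Cdk2 rests on Control S or G2M sets with 0 UMIs and Cdkn2c on sets with 0, 1 and 0 UMIs, so that the size of either depends on the prior count. The same sets held 3, 0 and 1 UMIs of Cdkn1a, so the size of its term is loosely set as well. Cdkn2c did not pass without Control tissue-3 (10.07) or without Control enriched (3.90), and Cdk2 passed in 1 of 6 fits that left out a library and not with library totals (adjusted p = 0.0702, edgeR). In macrophages Ccnd1 differed by -0.92 (adjusted p = 0.0113, edgeR), with 602.0, 504.2 and 523.1 CPM in S or G2M cells and 780.3, 632.7 and 697.2 CPM in G1 cells of YAP5SA, and 297.4 and 412.9 CPM and 216.9 and 234.7 CPM in those of Control. This was not passed without YAP5SA tissue-1 (adjusted p = 0.0926), Control tissue-2 (0.760) or Control tissue-3 (0.134). All 3 YAP5SA libraries were lower in S or G2M cells and both Control libraries higher, where 0.0867% of 9222 features passed with a lower value.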

How the results depend on the processing

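In cardiomyocytes 4 members passed; 7 did with library totals, 2 with tissue libraries alone, 2 in cells without fibroblast or macrophage markers, 2 in cells called G1, 0 without YAP5SAcm, and 0 to 6 when each library was left out. All features called were 2999, and 4803 with library totals, 1766 with tissue libraries, 4699 with joined names alone, 1156 in marker-free cells, 16 without YAP5SAcm and 198 to 4591 with a library left out. Log2 fold changes that turned sign were those of Cdk2 (-0.45 without YAP5SAcm, -0.024 in G1 cells), Cdkn2c (-0.17, -0.97) and Cdk4 (0.73 with library totals, 0.072 without YAP5SAcm, 0.058 without YAP5SA tissue-1, 0.093 without Control tissue-2; -0.29 to 0.093 over libraries left out). In fibroblasts 0 to 2 members passed with a library left out. With joined names alone Control tissue-2 was the 1 Control library compared, so calls in those fits are not read here. In macrophages, fits without a Control library were left with 1 Control library, and their calls are not read here. Class differences with library totals gave 5 members against fibroblasts, 4 against macrophages and 4 against endothelial cells. With a library left out they gave 1 to 5 against fibroblasts and 1 to 3 against endothelial cells. Against macrophages some of these fits had 1 Control library, and their calls are not read. The difference for Cdkn1a against fibroblasts was -0.0074 to 3.69 with a library left out. The phase test in marker-free cardiomyocytes gave 1 member. Phase by class terms with library totals gave 5 against fibroblasts and 3 against macrophages (0 to 2 and 1 to 2 with a library left out), and phase by genotype terms 1 to 3 in cardiomyocytes. Calls over clusters were 2 with library totals and 0 to 12 with a library left out. In cells thinned to 1000 UMIs the mean levels that moved were, in YAP5SA cardiomyocytes, Ccnd1 92.3, Cdk4 72.6, Cdk6 26.3, Cdkn1a 312.0 and Cdkn2c 11.2 CPM, and, in Control cardiomyocytes, Cdk6 5.94 and Cdkn2c 7.84 CPM. The causes were not tested. With a replicate block (the numbers 2 and 3 of the tissue titles, 1 library matched by elimination, and the enriched libraries as the remaining pair) 4 members and 2892 features passed in cardiomyocytes, 0 members in the other classes, and Cdkn1a had a log2 fold change of 2.61 (adjusted p = 0.0957, edgeR). The labels do not say what a number shares; deviations of same-numbered tissue libraries correlated at 0.136 over 10760 features in cardiomyocytes and 0.028 to 0.138 in the other classes. The few UMIs of Ccne1, Cdk2, Cdk6 and Cdkn2c in cardiomyocytes limit what can be seen in them.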

Other observations

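The features whose levels followed single members most closely over the 45 sums of a class in a library were read from 7205 features, by Pearson's r of log2 of CPM plus 1; the sums share libraries and depth, and r is given as a description. For Ccnd1 these were Pak2 (0.887), Tpm3 (0.886) and Wasf2 (0.868), and for Ccnd2 Utrn (0.653), Arid5b (0.653) and Ppp1r12a (0.649). For Ccnd3 they were Ccdc23 (0.860), Yme1l1 (0.844) and Dpm2 (0.839), and for Cdkn1a Picalm (0.856), Bax (0.843), itself a p53 target, and Nras (0.823).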
